A study of Mus musculus with 24 samples.

Results

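In livers in which Myc and YAP were induced together, 1031 of the 11708 YAP peaks on placed chromosomes (8.81%, 95% interval 8.31 to 9.33) shared no base with a Myc peak of the same genotype, and 10677 did. These 1031 regions are described here as YAP sites without Myc and are compared with the 10677 YAP sites with Myc. The members were chosen by the Myc and YAP peak positions of tet-Myc/YAP liver, so their YAP values and their lack of Myc in that genotype are a description and not a finding. They leaned towards enhancers where the sites with Myc leaned towards promoters: 491 (47.6%) lay at distal chromatin marked in wild-type liver, 413 (40.1%) at promoter-like chromatin and 127 (12.3%) in chromatin that carried no wild-type mark. TEAD was present at most of them, at 811 (78.7%), but less often than at the sites with Myc (95.9%). The other 220 had no TEAD peak in tet-Myc/YAP.

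YAP is the transcriptional coactivator restrained by the Hippo pathway, a kinase cascade that answers to cell contact and cytoskeletal tension and limits organ size in the liver. It cannot read DNA itself and is brought to chromatin mainly by the TEAD transcription factors, often at enhancers. Myc, a transcription factor induced by mitogens, binds E-box sequences and is known for its preference for promoters that are already open.

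The lists came from liver of R26-rtTA mice, which carry the reverse tetracycline transactivator, given doxycycline for 2 days. The 4 genotypes were wild-type (R26-rtTA;WT), tet-Myc (R26-rtTA;tet-Myc), tet-YAP (R26-rtTA;tet-YAP) and tet-Myc/YAP (R26-rtTA;tet-Myc;tet-YAP). Per the paper's methods the YAP transgene is Col1A1-YAP S127A, an activated form, so YAP here includes the induced mutant protein. Each antibody and genotype was 1 library, the age of the animals and any pooling are not given in these sources, and no value has a replicate error. Chromatin immunoprecipitation and sequencing (ChIP-seq) profiled Myc, TEAD, RNA polymerase II, H3K4me3, which marks promoters, and H3K27ac, found at active promoters and at enhancers, in every genotype. H3K4me1, found at enhancers and beside promoters, was profiled in wild-type alone, and YAP in the genotypes that carry its transgene. YAP chromatin was fixed with DSG, a protein crosslinker, and formaldehyde, and chromatin for the other antibodies with formaldehyde alone. Liver holds hepatocytes and other cells, and a bulk library cannot tell binding in few cells from weak binding in many.

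Every interval is a 95% one and covers only the counting of sites, and every difference is the share at YAP sites without Myc minus the share at YAP sites with Myc, in percentage points, with the Newcombe interval. Neighbouring sites are not independent. Where 4 values are given in genotype order, the order is wild-type first, then the single transgenics tet-Myc and tet-YAP, then tet-Myc/YAP. No test between genotypes was possible with 1 library each. Positions are in the mm9 build. No annotation or genome of that build was used, so sites are given by position, without genes or bases. The YAP list of tet-Myc/YAP was called from 17.4 M ChIP tags against a control 9.61 times deeper, and the Myc list of the same genotype from 16.9 M tags, the fewest of the 14 narrow lists.

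The first comparison asked where these sites lay. Sites in a wild-type H3K4me3 region are called promoter-like. Those outside it but in an H3K27ac or H3K4me1 region of wild-type are called distal, and those in none of these regions unmarked. Of all 11708 YAP sites 78% were promoter-like, 20.4% distal and 1.62% unmarked. The promoter-like share was 40.1% (37.1 to 43.1) without Myc and 81.6% (80.9 to 82.3) with Myc, a difference of -41.6 points (-44.6 to -38.4). Distal sites made up 47.6% (44.6 to 50.7) against 17.8% (17.1 to 18.5), and unmarked sites 12.3% (10.5 to 14.5) against 0.590% (0.461 to 0.754). Although only 8.81% of all YAP sites, the sites without Myc held 127 of the 190 unmarked ones. The distal sites lay well away from promoters, with a median gap of 27208 bp to the nearest wild-type H3K4me3 region, against 20201 bp for distal sites with Myc. For unmarked sites the median gap was 91584 bp, or 77061 bp without the 20 of high pileup described below.

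**Figure D1:**
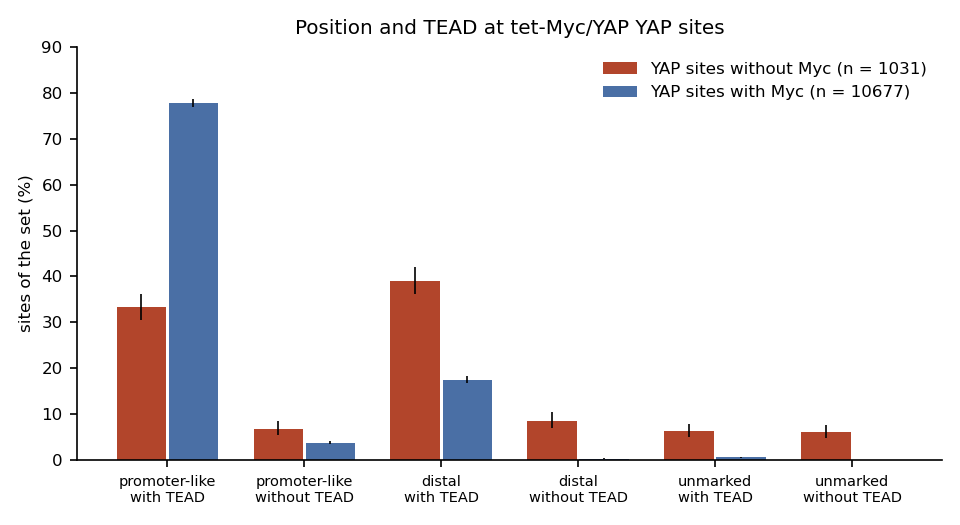
Share of YAP sites in each class of position and TEAD, in percent, for the 1031 YAP sites without Myc and the 10677 with Myc in tet-Myc/YAP liver, with Wilson 95% intervals. Promoter-like sites with TEAD made up 33.3% without Myc and 77.8% with Myc, and distal sites with TEAD 39.1% and 17.5%.

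Split further by TEAD of the same genotype, the 1031 sites fell into 343 promoter-like, 403 distal and 65 unmarked sites with TEAD, and 70 promoter-like, 88 distal and 62 unmarked sites without it. The YAP values that chose the sites were modest in every class. Fold enrichment over the control ranged from 1.5 to 12.4 with a median of 6.07, against a median of 6.80 and a maximum of 38.7 for the sites with Myc. The median was 5.94 at promoter-like sites with TEAD, 6.21 at distal sites with TEAD and 6.21 at unmarked sites with TEAD. The median width was 444 bp against 562 bp with Myc. Sites without Myc made up 14.6% of the weakest quartile of all YAP sites by fold enrichment, 11.4% and 6.55% of the next ones and 2.76% of the strongest.

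One small group stood apart from the rest by its YAP signal. A set of 21 sites had pileups of 108 to 329 tags at the summit but fold enrichments of only 1.5 to 5.66, so that the control was high there too, whereas the other 1010 sites had pileups of 16 to 53. None of the 21 had a TEAD or a Myc peak in any genotype, 20 of them were unmarked, and 14 lay in tet-YAP H3K4me3 regions. Of the 21, 13 lay side by side on chromosome 9 within 2999775 to 3038524, the widest of them at chr9:2999775-3001623 with a pileup of 274 and a fold enrichment of 3.65. The highest pileup, 329, lay at chr15:74916763-74917667. They made up 20 of the 62 unmarked sites without TEAD. Among YAP sites with Myc, 10 had pileups over 100. The main results for all sites and for unmarked sites, which these touch, are given with and without them. Without them 107 of 1010 sites (10.6%, 8.84 to 12.6) were unmarked.

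**Figure D2:**
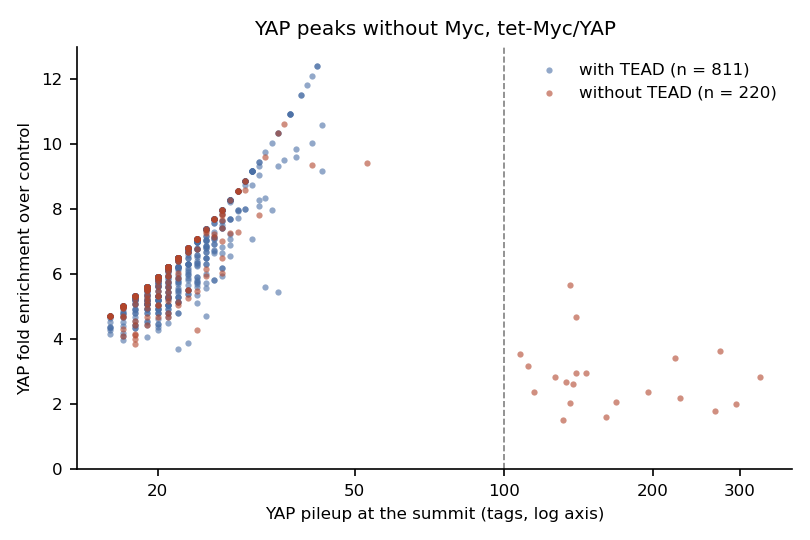
YAP pileup at the summit (tags, log axis) against YAP fold enrichment over the control for the 1031 YAP sites without Myc, by TEAD of tet-Myc/YAP (many points coincide). The 21 sites right of the dashed line at 100 tags all lacked TEAD, and the other 1010 had pileups of at most 53.

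TEAD was the factor most of these sites shared. In tet-Myc/YAP a TEAD peak overlapped 811 of the 1031 sites (78.7%, 76.1 to 81.1), against 94.3% of all YAP sites and 95.9% of those with Myc, a difference of -17.2 points (-19.8 to -14.8). Without the 21 sites of high pileup the share was 80.3%. The difference was -12.3 points (-16.2 to -8.95) at promoter-like sites, where 83.1% had TEAD. At distal sites it was -16.2 points (-19.9 to -13), with 82.1% having TEAD. At unmarked sites 51.2% had TEAD, or 60.7% of the 107 unmarked sites of low pileup, against 93.7% of the 63 unmarked sites with Myc. Within quartiles of YAP fold enrichment the difference was -18.2, -15.0, -15.7 and -13.9 points from the weakest to the strongest quartile. All 21 sites of high pileup, none with TEAD, fell in the weakest quartile (1.5 to 5.9), whose value was not recalculated without them. The strongest quartile ran from 8.01 to 38.7, but sites without Myc reached only 12.4, so YAP enrichment was not matched within it.

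Most of the sites also had TEAD in wild-type liver, which carries neither transgene. A wild-type TEAD peak overlapped 715 sites (69.4%, 66.5 to 72.1), against 86.3% of all YAP sites and 88.0% with Myc, a difference of -18.6 points (-21.6 to -15.8). Without the 21 sites of high pileup the wild-type share was 70.8%. The shares were 73.2% in tet-Myc (86.7% of all YAP sites) and 74.1% in tet-YAP (85.2%). At distal sites the shares in genotype order were 72.5%, 78.4%, 81.7% and 82.1%, against 87.9%, 93.2%, 92% and 98.3% with Myc. At promoter-like sites they were 72.9%, 73.4%, 70.5% and 83.1%, against 88.1%, 86.8%, 85.0% and 95.3% with Myc. The TEAD lists themselves held 33417, 44220, 32486 and 52392 peaks in the same order, and the part of list size was not tested. TEAD was present in all 4 genotypes at 592 sites (57.4%, against 75.5% of all YAP sites), and in none at 118 (11.4%, against 2.97%), of which 21 were the sites of high pileup. Of the 811 sites with TEAD in tet-Myc/YAP, 147 (18.1%, 15.6 to 20.9) had no wild-type TEAD peak, against 9.78% (9.22 to 10.4) of those with Myc and 10.4% of both together.

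Where TEAD was present, its enrichment was close to that at sites with Myc, except away from promoters. The median TEAD fold enrichment in tet-Myc/YAP was 11.4 against 12.4 with Myc, at the percentiles 72.2 and 75.9 of the whole TEAD list. The share of TEAD peaks in the top quartile of their list was 46.0% against 51.1%, a difference of -5.11 points (-8.65 to -1.54). This small difference turned with the threshold: among YAP peaks with an authors' −log10 q of at least 10 it was 1.93 points (-5.32 to 8.89). At distal sites the gap was wider, with 46.7% in the top quartile against 64.1%, a difference of -17.4 points (-22.7 to -12.1). In each other TEAD list only the distal sites with a peak in that list were counted, so the sites were not the same. The difference was -6.23 points (-11.7 to -0.548) in wild-type, over 356 sites without and 1671 with Myc. It was -6.17 (-11.6 to -0.661) in tet-Myc, over 385 and 1771, and -5.17 (-10.5 to 0.260) in tet-YAP, over 401 and 1748. At promoter-like sites the difference was -5.07 points (-10.3 to 0.323) in tet-Myc/YAP and 7.19 points (1.51 to 12.9) in tet-Myc. Unmarked sites had the strongest TEAD among the sites without Myc, with a median fold enrichment of 15.1 against 11.4 at distal and 10.8 at promoter-like sites. Their 63 counterparts with Myc were higher still, with a median of 24.7 over the 59 with TEAD.

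**Figure D3:**
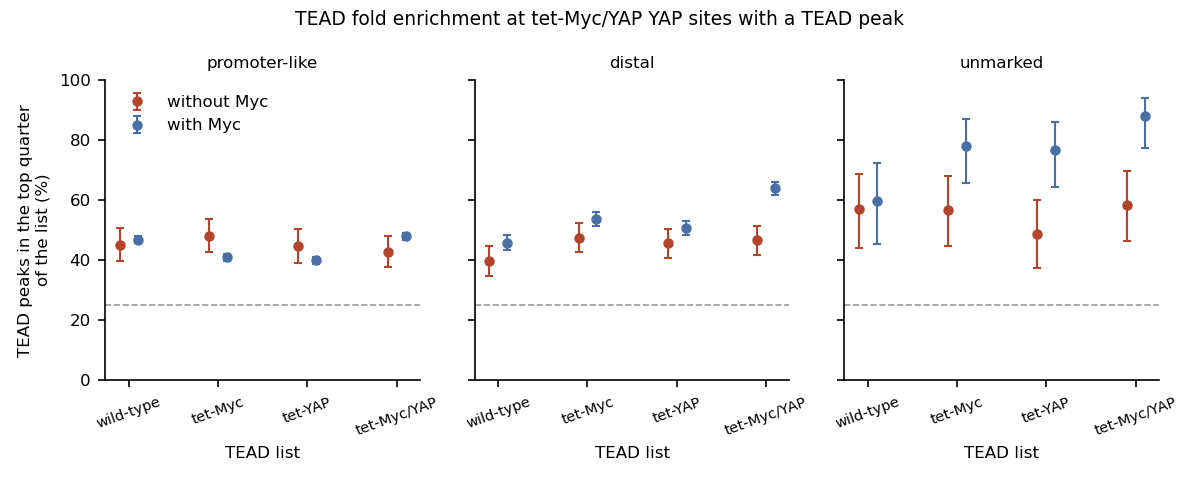
Share of overlapping TEAD peaks that were in the top quartile of their own list by fold enrichment (percent), in each of the 4 TEAD lists, for YAP sites without and with Myc by position, with Wilson 95% intervals. The dashed line marks 25%, the share of the whole list, and at distal sites the tet-Myc/YAP shares were 46.7% without and 64.1% with Myc.

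The summits of YAP and TEAD lay close together. The median distance between them was 119 bp, against 160 bp at sites with Myc, and 41.8% of TEAD summits were within 100 bp of the YAP summit against 34.6%, a difference of 7.18 points (3.71 to 10.7). The distance varied with position. The median distance was 82 bp at unmarked, 105 bp at distal and 165 bp at promoter-like sites. Within a class the difference was -0.892 points (-5.69 to 4.30) at promoter-like, 3.40 points (-1.93 to 8.77) at distal and 14.2 points (-3.25 to 30.6) at unmarked sites, none distinguishable from 0 at these counts.

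The site without Myc that had the strongest TEAD peak lay at chr7:78608868-78609231, at a distal place 2782 bp from the nearest Myc peak. Its TEAD fold enrichments, in genotype order, were 7.01, 10.6, 38.8 and 98.0. A YAP peak was called there in tet-YAP too. The next was an unmarked site at chr1:36074066-36074516, with TEAD fold enrichments of 9.50, 20.8, 44.4 and 94.6. There H3K27ac regions were called in tet-YAP and tet-Myc/YAP but in neither genotype without the YAP transgene. The third, at chr7:54025908-54026658, was also the unmarked site with TEAD that had the highest YAP −log10 q, 22.6. Its TEAD fold enrichments were 24.7, 55.8, 34.1 and 93.7, and it had a YAP peak in tet-YAP but no histone mark, RNA polymerase II or Myc peak in any list. These sites were chosen for their TEAD value in tet-Myc/YAP, and fold enrichment depends on the library, so no order of genotypes is read from them.

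The second comparison asked whether these sites lacked Myc in general or only in the list that chose them. In tet-Myc liver a Myc peak overlapped 351 of them (34.0%, 31.2 to 37.0), against 89.8% of all YAP sites and 95.2% of those with Myc, a difference of -61.2 points (-64 to -58.2). Without the 21 sites of high pileup the tet-Myc share was 34.8%. In tet-YAP it was 83 (8.05%, against 57.2% of all), and in wild-type 20 (1.94%, against 15.9%). The wild-type Myc peaks were narrow, 81 bp at the median against 530 to 749 bp in the other Myc lists. They were called with an estimated fragment of 51 bp, so lack of overlap with them says less. In all, 643 sites (62.4%, 59.4 to 65.3) had no Myc peak in any genotype. The rule kept every site with Myc out of this count, so its share of all YAP sites, 5.49%, is no separate comparison. These 643 made up 55.7% of the promoter-like, 60.5% of the distal and 91.3% of the unmarked sites. Without the sites of high pileup they numbered 622 of 1010 (61.6%), and 96 of 107 unmarked ones (89.7%). Of the 10677 sites with Myc in tet-Myc/YAP, 433 (4.06%) had no Myc peak in any of the other 3 genotypes, and of all YAP sites 9.19%. The tet-Myc Myc peaks at sites without Myc were weak ones, their median fold enrichment being 6.31, at the percentile 27.8 of the tet-Myc list, against 12.0 at the percentile 74.3 at sites with Myc. No Myc peak of any genotype was thus called at 643 of the 1031 sites. Of these, 341 had TEAD in all 4 genotypes: 125 promoter-like, 172 distal and 44 unmarked ones. They were 2.91% of all YAP sites, a share that the rule again closed to sites with Myc.

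Some of the sites lay beside a Myc peak and others far from one. The gap to the nearest Myc peak of tet-Myc/YAP was 11593 bp at the median, 185 sites (17.9%) lay within 1000 bp of one and 542 (52.6%) more than 10 kb away. The median gap was 2233 bp at promoter-like, 15179 bp at distal and 113336 bp at unmarked sites (90069 bp without those of high pileup). Up to 100 kb TEAD varied little with this distance. Its share was 77.1% (61.0 to 87.9) of the 35 sites within 100 bp, 84.3% (78.6 to 88.7) of the 198 at 1 to 5 kb and 83.3% (77.9 to 87.6) of the 227 at 20 to 100 kb. It was lower, at 62.8% (55.2 to 69.8), only in the bin of the 164 sites beyond 100 kb, which includes the 13 neighbouring sites of high pileup on chromosome 9, none of them with TEAD. Over the 150 sites of low pileup in that bin it was 68.7% (60.9 to 75.5). Wild-type H3K4me3 fell from 94.3% to 15.9% over the same bins, and RNA polymerase II of tet-Myc/YAP from 80% to 7.32%. Myc of tet-Myc overlapped 60.0% (43.6 to 74.4) of the sites within 100 bp and 21.3% (15.8 to 28.2) of those beyond 100 kb.

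**Figure D4:**
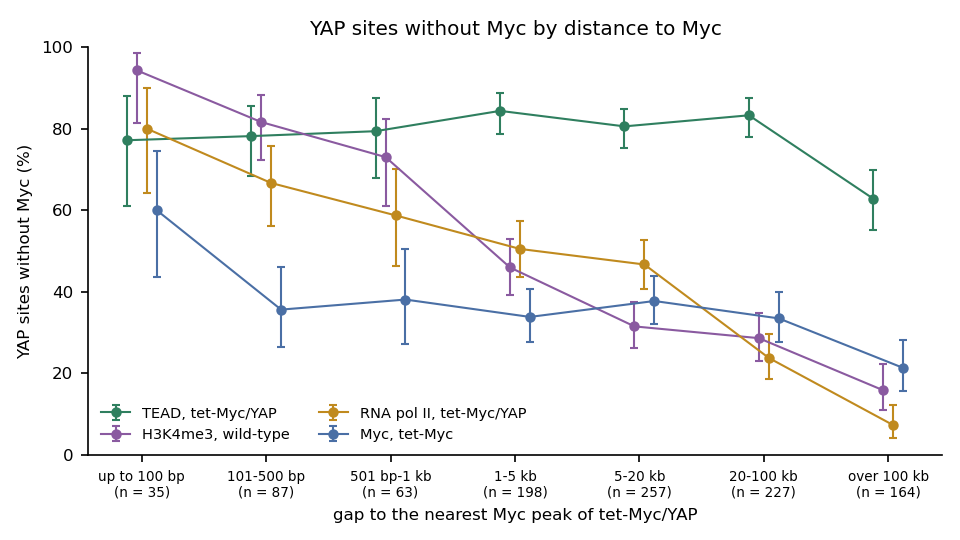
Share of YAP sites without Myc (percent, Wilson 95% intervals) that overlapped TEAD or RNA polymerase II of tet-Myc/YAP, wild-type H3K4me3 or Myc of tet-Myc, by the gap to the nearest Myc peak of tet-Myc/YAP. TEAD stayed between 77.1% and 84.3% up to 100 kb, while H3K4me3 fell from 94.3% of the nearest sites to 15.9% of the farthest.

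The edge of the definition was narrow. The 35 sites with a gap of at most 100 bp had a median YAP fold enrichment of 5.62, and so had the 65 sites that overlapped a Myc peak by at most 100 bp. The nearest miss lay at chr16:27388013-27388653, 1 bp from a Myc peak, with a tet-Myc Myc peak of fold enrichment 7.13 and TEAD in all 4 genotypes. The smallest overlap, 2 bp, was at chr17:33897391-33897798, with a tet-Myc/YAP Myc fold enrichment of 10.2.

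Some promoter-like sites without Myc lay in a region that held Myc elsewhere and others did not. The 413 sites lay in 399 wild-type H3K4me3 regions. Region widths in this paragraph are medians over sites, so a region counts once for each site in it. The width was 4637 bp, against 4851 bp for promoter-like sites with Myc. For 237 of the 413 sites (57.4%, 52.6 to 62.1) the region held a tet-Myc/YAP Myc peak elsewhere, and for 176 it held none. The former regions were wide, 7408 bp at the median, and the latter 2504 bp. Of all 18852 wild-type H3K4me3 regions, 72.2% held a Myc peak, so the share at these sites was lower. That share counts each region once, and the rule kept Myc off these sites. At sites whose region held no Myc, wild-type TEAD was present at 79.5% (73.0 to 84.8) and RNA polymerase II of tet-Myc/YAP at 59.1% (51.7 to 66.1). Where Myc was elsewhere in the region these shares were 67.9% (61.7 to 73.5) and 72.2% (66.1 to 77.5). Of all 17821 wild-type H3K27ac regions of any position, 74.8% held a Myc peak. Of the 402 distal sites in such regions, 205 (51.0%) shared the region with a Myc peak elsewhere and 197 did not. Wild-type TEAD was present at 65.4% (58.6 to 71.5) of the former and 79.7% (73.5 to 84.7) of the latter, RNA polymerase II of tet-Myc/YAP at 41.0% (34.5 to 47.8) and 17.3% (12.6 to 23.1). Region widths were 25154 and 8122 bp, and the part of width in these differences was not tested.

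The third comparison asked what RNA polymerase II and the histone marks did at these sites. Over all positions RNA polymerase II, the enzyme that transcribes protein-coding genes, was rarer in every genotype at these sites than at those with Myc. In wild-type it was present at 29.7% (27 to 32.5) against 77.7%, in tet-Myc at 49.2% against 92.4%, in tet-YAP at 40.5% against 85.1% and with both transgenes at 39.7% against 90.2%. Of all YAP sites, 73.5%, 88.6%, 81.1% and 85.8% had it in these lists. The share without Myc was thus lowest in wild-type and highest in tet-Myc, but the 4 libraries also differed in depth, from 20.9 M tags in wild-type and 37.7 M in tet-YAP to 45.8 M in tet-Myc/YAP and 50.6 M in tet-Myc, and the part of depth was not tested. The difference in tet-Myc/YAP was -50.6 points (-53.5 to -47.5) over all sites, -29.7 (-34.4 to -25.3) at promoter-like and -38.9 (-43.2 to -34.3) at distal sites, and -49.8 over all sites without YAP sites of pileup over 100. At promoter-like sites without Myc the polymerase was present in all 4 genotypes at 194 of 413 (47.0%) and in none at 59 (14.3%), against 86.3% and 1.17% with Myc. Its median fold enrichment at promoter-like sites of tet-Myc/YAP was 8.50 without Myc and 20.4 with Myc, at the percentiles 77.0 and 91.4 of the list. Over all YAP sites the polymerase was in all 4 genotypes at 70.5% and in none at 8.19%. Most distal sites without Myc, 260 of 491 (53.0%), had no RNA polymerase II peak in any genotype, against 19.8% with Myc.

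**Figure D5:**
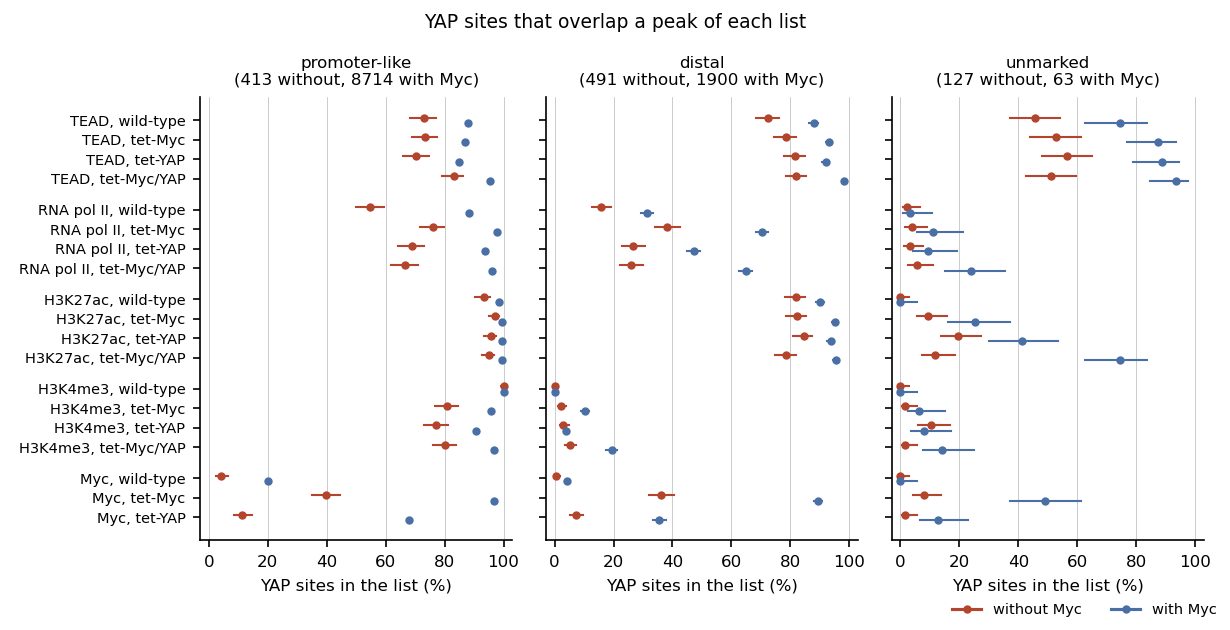
Share of YAP sites (percent, Wilson 95% intervals) that overlapped a peak of each list, by position, for YAP sites without and with Myc. At distal sites RNA polymerase II of tet-Myc/YAP was present at 25.9% without and 64.8% with Myc, whereas H3K27ac differed less, at 78.6% and 95.5%, and the Myc list of tet-Myc/YAP, which chose the sites, is left out.

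H3K27ac differed less. It covered 76.3%, 79.2%, 81.1% and 77.0% of the sites in genotype order, against 94.5%, 96.6%, 96.5% and 96.8% of all YAP sites. The difference in tet-Myc/YAP was -21.7 points (-24.3 to -19.2), and -20.1 without YAP sites of pileup over 100. Of the promoter-like sites 377 of 413 (91.3%) had it in all 4 genotypes, against 97.9% of those with Myc, a difference of -6.66 points (-9.79 to -4.29). The share over YAP sites of any position was 92.9%. Distal sites were in H3K27ac regions of all 4 genotypes in 323 of 491 cases (65.8%, against 86.7% with Myc). H3K4me1, measured in wild-type only, overlapped 80.6% of the sites and 93.7% of all YAP sites. It overlapped 94.3% of the distal ones, which the definition of distal sites largely sets, against 98.6% of distal sites with Myc, a difference of -4.28 points (-6.74 to -2.44).

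H3K4me3 at the promoter-like sites was less constant than at those with Myc. All 413 had it in wild-type by definition. In the transgenic genotypes, in order, 80.9%, 77.2% and 80.1% had it, against 95.6%, 90.8% and 96.6% with Myc. Over all positions, 33.7% of the sites without Myc had H3K4me3 in tet-Myc (75.8% of all YAP sites), 33.6% in tet-YAP (71.2%) and 34.7% with both transgenes (78.2%). It was called in all 4 genotypes at 278 (67.3%, against 89.3% with Myc and 68.8% of YAP sites of any position) and in wild-type alone at 39 (9.44%, against 1.93%). No H3K4me3 region of any genotype overlapped 453 of the 491 distal sites (92.3%, against 76.7% with Myc and 17.7% of YAP sites of any position). In tet-Myc 11 distal sites (2.24%) were in H3K4me3 regions, against 10.2% with Myc, a difference of -7.92 points (-9.66 to -5.77). In tet-YAP 14 were (2.85%), against 3.95%, a difference of -1.10 points (-2.60 to 0.940) that includes 0. With both transgenes it was 25, or 5.09% (3.47 to 7.41) against 19.3% with Myc, a difference of -14.2 points (-16.7 to -11.3).

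The unmarked sites showed the widest difference in H3K27ac. By definition none had the mark in wild-type. In tet-Myc/YAP 15 of the 127 sites without Myc (11.8%, 7.29 to 18.6) lay in an H3K27ac region, against 47 of the 63 with Myc (74.6%), a difference of -62.8 points (-73 to -49.1). All 15 were among the 107 sites of low pileup (14%, 8.68 to 21.8). In tet-YAP the shares were 19.7% and 41.3%, and in tet-Myc 9.45% and 25.4%. Among the unmarked sites without Myc, 88 (69.3%) had no H3K27ac region in any genotype, against 23.8% of those with Myc (1.59% of YAP sites of any position). No RNA polymerase II peak of any genotype was at 117 (92.1%), against 69.8% with Myc (8.19% of YAP sites of any position). At 26 there was no peak in any other list (0.222% of all YAP sites, all of them unmarked), a count that the rule closed to sites with Myc. Over the 107 of low pileup the numbers without Myc were 68 (63.6%), 97 (90.7%) and 21 (19.6%).

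Within the sites without Myc, those with and without TEAD in tet-Myc/YAP were then compared over the 1010 of low pileup, 811 with and 199 without. The TEAD-bound sites more often had Myc in tet-Myc (38.5% against 19.6%, 18.9 points higher, 12.0 to 24.8), RNA polymerase II in tet-Myc/YAP (44.3% against 25.1%, 19.1 points, 11.8 to 25.6) and H3K27ac in tet-Myc/YAP (83.8% against 57.3%, 26.6 points, 19.4 to 33.9). In wild-type the H3K27ac shares were nearer, at 80.1% and 68.8%, and in tet-YAP 83.8% and 78.4%. These pooled shares mix positions. Unmarked sites, which lack wild-type H3K27ac by definition, were 65 of the 811 and 42 of the 199. At promoter-like sites the H3K27ac difference was 2.57 points (-2.99 to 11.8) in wild-type and 8.39 points (2.28 to 18.1) in tet-Myc/YAP. At unmarked sites it was 19.2 points (6.24 to 30.8) in tet-Myc/YAP.

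At distal sites the contrast in H3K27ac was present in some genotypes and not distinguishable from 0 in others. The 88 distal sites without TEAD were in H3K27ac regions at 84.1% in wild-type, 89.8% in tet-YAP, 70.5% in tet-Myc and 59.1% in tet-Myc/YAP. For the 403 distal sites with TEAD the shares were 81.4%, 83.4%, 84.9% and 82.9% in the same order. The difference, with minus without TEAD, was -2.70 points (-10.1 to 6.99) in wild-type, -6.40 (-12.6 to 2.34) in tet-YAP, 14.4 (5.07 to 25.1) in tet-Myc and largest, 23.8 (13.3 to 34.8), where both were induced. The definition of distal sites, by wild-type H3K27ac or H3K4me1, largely sets the wild-type shares. The wild-type difference is therefore no baseline for the other genotypes, and whether the difference varied between genotypes was not tested. TEAD itself was called at 47.7% of these 88 sites in tet-YAP, 31.8% in wild-type and 22.7% in tet-Myc. RNA polymerase II of tet-Myc/YAP was present at 12.5% of the 88 and 28.8% of the 403.

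Sites without TEAD had it in another genotype about as often as the YAP sites with Myc that lacked it. Of the 220 sites without TEAD in tet-Myc/YAP, 118 had none in any genotype, among them the 21 of high pileup. The other 102 (46.4%) had a TEAD peak in another genotype, 69 of them in tet-YAP. Of the 443 such sites with Myc, 230 had none in any genotype. In wild-type, tet-Myc and tet-YAP, TEAD was called at 23.2%, 16.4% and 31.4% of the 220, against 36.1%, 18.5% and 21.4% of the 443. Of the 220, 50 (22.7%) lay within 1000 bp of a tet-Myc/YAP TEAD peak. Promoter-like sites without Myc and TEAD with the highest YAP −log10 q lay at chr2:4802827-4803232, at chr8:112261314-112261786 and at chr9:8004559-8005028. All had H3K27ac and H3K4me3 in all 4 genotypes, and the one on chromosome 9 had a wild-type TEAD peak of fold enrichment 5.09. Of the distal ones, that at chr8:27704235-27704824 had TEAD fold enrichments of 4.50 in wild-type and 6.48 in tet-YAP, and that at chr6:135957856-135958639 had 5.28 and 6.48. At both places TEAD was called in the genotypes without the Myc transgene and in neither with it, and H3K27ac was called in tet-YAP alone at the first and in wild-type and tet-YAP at the second. The third distal site, at chr17:34962057-34962738, had no TEAD peak in any genotype. The 3 unmarked sites that the rule for single sites gave all belonged to the group of high pileup. The top 3 of low pileup, chosen after their values were seen, lay at chr17:4626013-4626794, at chr4:3797622-3798289 and at chr11:7715411-7716272. The one on chromosome 4, with a YAP fold enrichment of 10.6, was in no other list.

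The last comparison asked which of these sites YAP also held without induced Myc. A tet-YAP YAP peak overlapped 91 of the 1031 sites (8.83%, 7.24 to 10.7), against 4.73% of all YAP sites and 463 (4.34%) of those with Myc, a difference of 4.49 points (2.86 to 6.41). Over the 1010 sites of low pileup the difference was 4.51 points (2.86 to 6.45). It was 4.47 points (2.15 to 7.54) at promoter-like sites and 1.42 points (-0.943 to 4.31) at distal ones, and ran the other way, at -8.85 points (-21.8 to 2.55), at unmarked ones. The intervals at distal and unmarked sites include 0. It was 1.80 points (0.901 to 2.92) when the YAP summit had to lie inside the other peak. The tet-YAP peaks were narrow, 98 bp at the median, and were called with an estimated fragment of 56 bp. The tet-YAP YAP list held only 1328 peaks, against 11719 in tet-Myc/YAP with contigs included. It was called from 25.2 M ChIP tags against a control of 25.2 M, without the deeper control of tet-Myc/YAP. The part of list size and control in these shares was not tested. Of the 91 sites, 34 were promoter-like, 38 distal and 19 unmarked.

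TEAD was present at almost all shared sites, with or without Myc. It was present in tet-Myc/YAP at 88 of the 91 and in all 4 genotypes at 85, against 462 and 459 of the 463 shared sites with Myc, while a Myc peak of any genotype was present at 11. By contrast, only 1 of the 199 sites of low pileup without TEAD had YAP in tet-YAP (0.503%, against 10.9% of those with TEAD, a difference of 10.3 points, 7.34 to 12.7). Unmarked sites with TEAD were shared most often, 17 of 65 (26.2%), then promoter-like (9.91%) and distal ones with TEAD (9.18%). For unmarked sites with TEAD and Myc it was 15 of 59 (25.4%), a difference of 0.730 points (-14.6 to 15.8). The median fold enrichment in the tet-YAP list was 16.6, against 15.3 at shared sites with Myc, and the summits of both YAP peaks were 93 bp apart at the median. The strongest in tet-YAP were distal sites at chr11:78896598-78896988, at chr15:79782262-79782888 and at chr11:115703146-115703856, with tet-YAP fold enrichments of 42.4, 41.1 and 34.5. All 3 had H3K27ac and TEAD in all 4 genotypes and no Myc peak in any. At the first of them the TEAD fold enrichment was 26.1, 41.8, 16.3 and 25.1 in genotype order, so TEAD was high there with and without the transgenes.

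The sites with the highest YAP −log10 q differed in Myc and RNA polymerase II. The promoter-like ones with TEAD lay at chr1:154749960-154750432, at chr2:61239921-61240419 and at chr4:117354484-117355090, with YAP fold enrichments of 12.4, 12.1 and 10.6. The first was 137 bp from a tet-Myc/YAP Myc peak and had Myc in wild-type and tet-Myc, and RNA polymerase II in all 4 genotypes. The second was 104134 bp from Myc, had none in any genotype and had YAP in tet-YAP. The third had Myc peaks in wild-type, tet-Myc and tet-YAP although the nearest tet-Myc/YAP Myc peak was 69531 bp away. The top distal site with TEAD, at chr13:43992141-43992802 (YAP fold enrichment 12.4), had TEAD fold enrichments of 20.2, 34.1, 18.7 and 37.3 in genotype order and no Myc or RNA polymerase II peak in any. The next lay at chr1:74797264-74797887 and at chr1:129795903-129796482, again with TEAD in all 4 genotypes and Myc in none.

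The sites were spread over the genome. On each autosome they made up 6.59% to 10.9% of the YAP sites, and on the X chromosome 8 of 36 (22.2%, 11.7 to 38.1). Linked at 50 kb, 167 of the 1010 sites of low pileup (16.5%) fell into 75 groups of 2 or more and the others were single. The largest group held 5 sites, at chr12:88231328-88273746, of which 3 were promoter-like and 2 distal. All 5 had TEAD in tet-Myc/YAP, 2 had YAP in tet-YAP, and 4 Myc peaks lay between them.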

How the data were processed

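Peaks came from ChIP-seq of mouse liver, 1 library for each antibody and genotype, grouped by the labels. Of 24 samples, 23 had a list, and the input was not analysed here. The submitters' processing notes name BWA 0.6.2, SAMtools and MACS2 2.0.9, and the mm9 build. Libraries were called separately. In the 14 narrow lists the authors deposited a pileup signal, a ratio to the control (fold enrichment), and −log10 p and −log10 q values, at a p-value cutoff of 1e-05. The 9 broad histone lists were deposited with a score, which was not used, and their depth is unknown. ChIP depth was 16.9 to 50.6 M tags for the narrow lists.

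Sites were intersected at 1 bp in Python 3.11.15 (pandas 2.3.3, numpy 2.4.6), and the code passed 6 of 6 checks on simulated data. Wilson and Newcombe intervals used scipy 1.17.1, figures matplotlib 3.10.9. Fold enrichment was compared within a list, as the percentile there. The strongest peak was taken where several overlapped. Single sites were, per class, the 3 of highest −log10 q (ties by fold enrichment, then position), the 3 with the strongest TEAD or tet-YAP YAP peak, and the 3 nearest the edge of the definition. Members, lists and classes were chosen with earlier results of these data known. The planned gene lists and liver marker check were not run, because no mm9 annotation was used. Alternatives are given in the closing section.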

Additional observations from a re-analysis of the deposited data

Results flagged for a closer look

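The YAP list of tet-Myc/YAP also held 11 peaks on unplaced contigs, which no comparison above uses and which stand out as signal outside the chromosomes analysed. All 11 lacked a Myc peak. Their pileups ranged from 19 to 351 tags and their fold enrichments from 2.33 to 12.3, and 2 of them had pileups over 100.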

How the results depend on the processing

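Alternatives were compared by the difference in share between YAP sites without and with Myc, in percentage points. Of 55 such values 53 kept the direction. The 2 that turned were the share of TEAD peaks in the top quartile of their list, which went from -5.11 to 1.93 with a −log10 q of at least 10 in the YAP list and to 3.06 with that threshold in the Myc, TEAD and YAP lists, both with intervals that include 0. With the YAP threshold the number of sites fell to 252, which is fewer sites by construction, and the differences were -57.8 for RNA polymerase II, -53.1 for the promoter-like share, -30.1 for H3K27ac and -22.2 for TEAD. With the threshold in all 3 lists they were -66.8 for tet-Myc Myc, -43.1 for RNA polymerase II and -14.0 for TEAD, over 415 sites. With the YAP summit inside the other region they were -44.4 for RNA polymerase II, -32.5 for the promoter-like share, -16.0 for H3K27ac, 1.80 for tet-YAP YAP and -1.17 for the top quartile of TEAD. With no Myc peak in any genotype (643 sites) they were -56.2 for RNA polymerase II, -44.6 for the promoter-like share, -27.5 for H3K27ac, -24.4 for wild-type TEAD, -22.3 for TEAD, 8.16 for tet-YAP YAP and -0.872 for the top quartile of TEAD. With no Myc peak within 1000 bp they were -56.0 for RNA polymerase II, -50.5 for the promoter-like share and -26.5 for H3K27ac. The causes of these shifts were not tested. The other 35 values stayed within the interval of the value reported above, or for counts by less than 1.5 times, among them all of those without the YAP sites of pileup over 100, an alternative chosen after seeing the data. With 1 library a group, no replicate could be left out, and intervals do not cover differences between animals, libraries or depths. No paired analysis was possible because each group was 1 library.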
